A study of Mus musculus with 9 samples.

Results

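The genes described here encode the proteins of the mitochondrial ribosome in mouse CD4+ T cells. They were taken from the deposited expression table by name: every gene whose symbol starts with Mrpl or Mrps followed by a digit, without pseudogenes and without genes averaging under 1 FPKM over the 9 libraries. FPKM is the number of sequenced fragments per kilobase of transcript, scaled to the size of the library, so levels of different genes can be compared per length. Of 25759 gene rows, 81 carried such a symbol, 4 of them were pseudogenes and 0 fell under 1 FPKM, which left 77 genes, 48 with an Mrpl and 29 with an Mrps symbol. The lowest of them, Mrpl35, averaged 5.56 FPKM, so the threshold set no member apart.

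The study asked how loss of the bone morphogenetic protein receptor BMPR1a changes gene expression in CD4+ T cells, and sequenced RNA of 3 libraries in each of 3 groups. Activated knockout cells came from mice labelled BMPR1a/CD4cre, in which Cre recombinase is driven by the Cd4 promoter, which is active from the thymus onward and in the precursors of CD8 T cells as well. Activated wild-type (WT) cells came from mice without that deletion. For both activated groups, lymph node and spleen cells were cultured together for 3 days with the T cell mitogen concanavalin A at 2 ug/ml and lipopolysaccharide at 10 ng/ml, and CD4+CD44+CD62L- cells were then sorted. Naive WT cells were sorted as CD4+CD44-CD62+ without culture, so activation, culture and the sorted surface markers differ together between activated and naive cells. All mice were C57BL/6, 8 to 12 weeks old and carried a Foxp3-GFP reporter, and only reporter-negative cells were sorted, which leaves out Foxp3+ regulatory T cells. Nothing in the labels tells whether the libraries of a group represent different mice or cultures; p-values therefore refer to the spread among the sequenced libraries alone, which may be technical. Naive and activated cells were bulk samples, in which fewer cells of a type and less RNA per cell cannot be told apart.

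Mitochondria carry their own ribosome, built from rRNAs transcribed from mitochondrial DNA and from proteins that are all encoded in the nucleus, made in the cytosol and imported. It translates only the few mitochondrially encoded proteins, which are core subunits of the respiratory chain and ATP synthase. Many of its proteins descend from those of bacterial ribosomes, and others are found only in mitochondrial ribosomes. The large subunit forms peptide bonds and anchors the ribosome to the inner membrane, and the small subunit holds the mRNA. Activated T cells expand their mitochondria, and mitochondrial translation is known to be needed for their proliferation and cytokine production. By the current nomenclature, 50 of the 77 genes encode large-subunit and 26 small-subunit proteins. Mrps30 and Mrps18a, despite their symbols, belong to the large subunit, and Mrps36, the remaining gene, encodes a component of the 2-oxoglutarate dehydrogenase complex and no ribosome subunit.

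In the 9 libraries the genes were all measured at moderate levels. Mean levels ran over the 9 libraries to 100.6 FPKM for Mrpl52, with a median of 29.4 FPKM over the 77 genes. The 4 highest were Mrpl52, Mrps21 with 90.97 FPKM, Mrps16 with 85.0 FPKM and Mrpl58, whose product rescues stalled ribosomes, with 82.4 FPKM. The 4 lowest were Mrpl35, Mrpl11 with 6.51 FPKM, Mrps27 with 7.40 FPKM and Mrpl57 with 7.52 FPKM. Both subunits held abundant and scarce members, and large-subunit genes had a median of 28.9 FPKM against 32.5 FPKM for small-subunit genes.

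Together the genes made up a small share of the protein-coding FPKM, and the share was highest in activated knockout cells. It was 0.490, 0.505 and 0.516% in activated knockout libraries, against 0.435, 0.437 and 0.450% in activated WT and 0.376, 0.369 and 0.394% in naive WT libraries. The 3 groups did not overlap, with means of 0.504 ± 0.0131%, 0.441 ± 0.00814% and 0.380 ± 0.0129% (SD, n = 3 each). Taken gene by gene, as in the heat map of all 77 genes, the WT groups were less clearly apart: the median deviation of the 77 genes from their means was -0.08 on the log2 scale in activated WT library 2 and -0.06 in naive library 3.

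**Figure D1:**
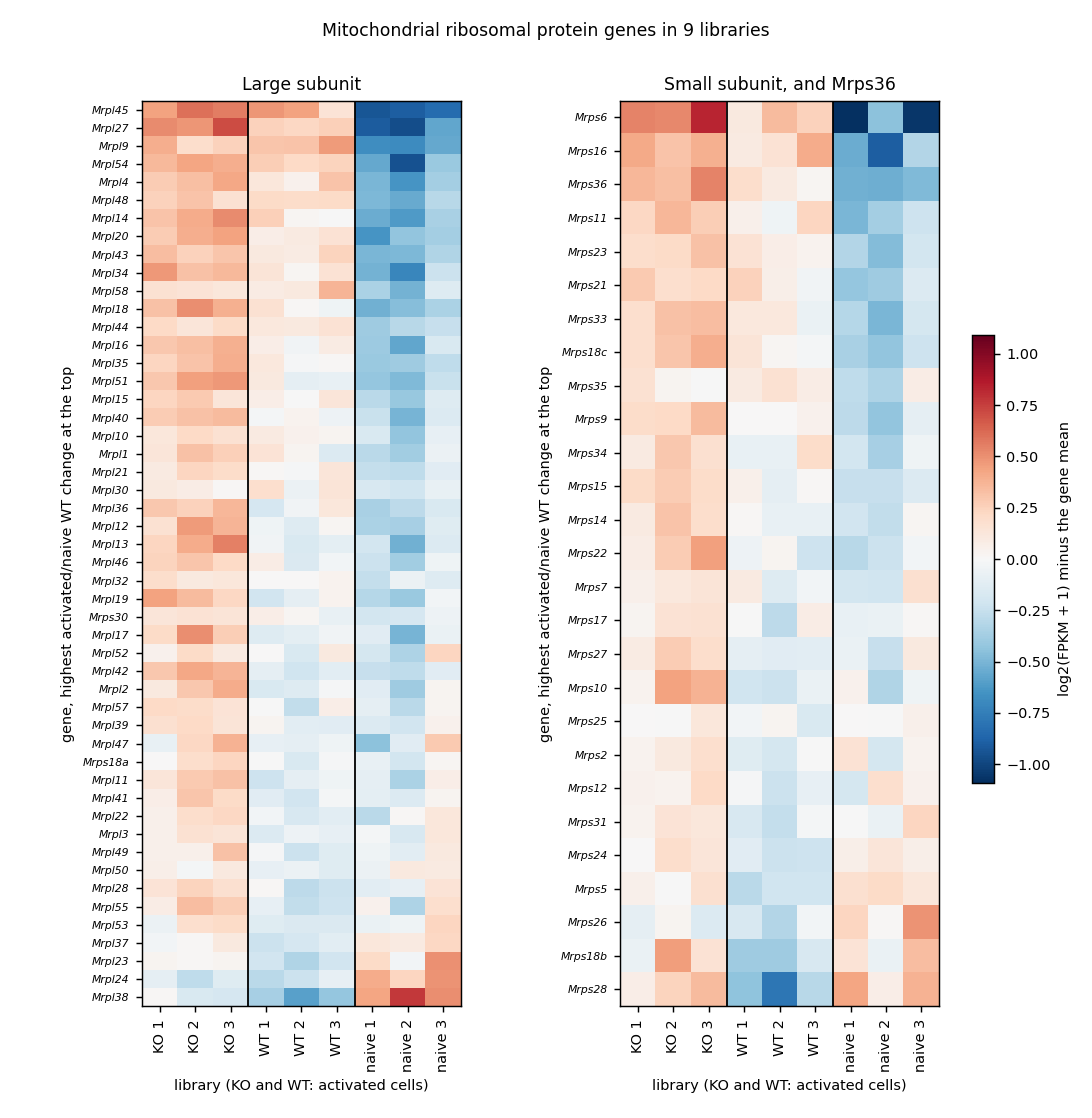
Level of each of the 77 genes in each library, as log2(FPKM + 1) minus the gene's mean over the 9 libraries (red above, blue below), with genes ordered by their activated over naive WT change; KO and WT are activated cells. Mrpl45, Mrpl27 and Mrps6 at the top are lowest in naive cells, and Mrpl38, Mrpl24 and Mrps28 at the bottom are lowest in activated WT cells or in both activated groups.

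Libraries were alike in breadth, with 12922 to 13395 genes at 1 FPKM or more, but the files give no read counts and the depth is unknown. The CD4 T cell markers Cd4, Cd3d, Cd3e and Cd3g summed to 1289 to 1725 FPKM in every library. Their sums were 1589, 1428 and 1419 FPKM in activated knockout and 1620, 1600 and 1725 FPKM in activated WT libraries. Every knockout library thus lay below every activated WT one. Naive libraries had 1370, 1289 and 1365 FPKM. Bmpr1a had 0.957, 1.93 and 1.20 FPKM in activated knockout, 2.16, 2.92 and 1.40 FPKM in activated WT and 0.460, 0.311 and 0.336 FPKM in naive WT libraries, and the activated groups overlapped. The table gives levels for whole genes, so it does not check the deletion itself. Naive library 2 stood apart: its 6 granulocyte markers summed to 661 FPKM, against 0.114 to 1.21 FPKM in activated and 54.1 and 107 FPKM in the other naive libraries, and its 5 monocyte markers to 190 FPKM, against 22.1 and 55.7 FPKM. It was also the lowest of the 9 libraries for 42 of the 77 genes. The 5 erythroid markers summed to 0.816 to 1.69 FPKM in activated and 63.3 to 83.7 FPKM in naive libraries, and the 3 NK cell markers to 0.721 to 3.20 FPKM in activated and 7.67, 43.9 and 23.1 FPKM in naive libraries. The 4 B cell markers summed to 110 to 167 FPKM in activated libraries and to 49.4, 2.77 and 161 FPKM in naive ones. The 2 CD8 markers summed to 220, 279 and 254 FPKM in activated knockout, 171, 147 and 230 FPKM in activated WT and 18.3, 9.48 and 41.4 FPKM in naive libraries. The part of these cells in the results was not tested; the counts of called members are given without naive library 2 for both comparisons with naive cells.

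Activated and naive WT cells differed in 40 of the 77 genes, 31 higher and 9 lower in activated cells. Each gene was tested on log2(FPKM + 1) with limma in 1 fit over the 9 libraries, two-sided, with Benjamini-Hochberg adjustment over 15126 genes, and called at an adjusted p under 0.05. The called share, 51.9%, was that of all genes (52.0%). The directions were not: 40.3% of the members were called higher, where 26.2% of all genes were, and 11.7% lower, where 25.8% were. The median log2 fold change was 0.17 over the members and -0.01 over all genes tested, and the members ranged from -1.03 to 1.25. It was above 0 in 52 members, against 48.9% of all genes, and 43 members had an unadjusted p under 0.05, against 58.0% of all genes. In 32 members every activated library lay above every naive one and in 10 every one lay below, against 29.6% and 29.8% of all genes. Without naive library 2 there were 29 called higher and 10 called lower, with a median of 0.11.

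**Figure D2:**
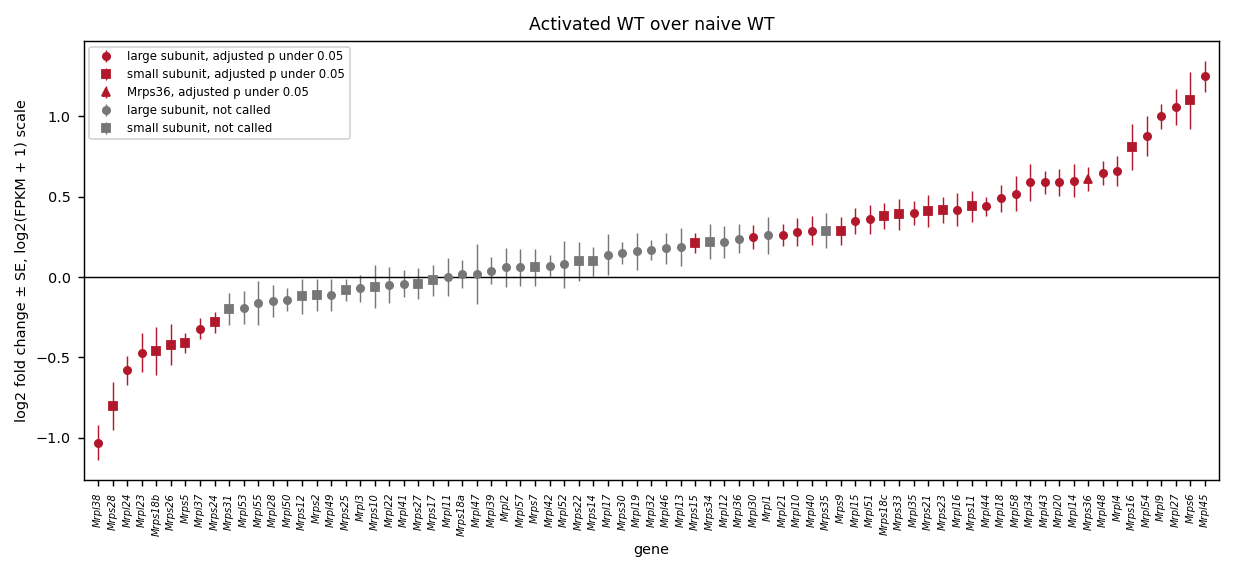
Log2 fold change of each of the 77 genes in activated WT over naive WT cells, on the log2(FPKM + 1) scale, ordered from lowest to highest, with bars for the SE. Red marks an adjusted p under 0.05; Mrpl45 is highest at 1.25 and Mrpl38 lowest at -1.03.

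Among large-subunit genes, 21 of 50 were called higher and 4 lower, with a median log2 fold change of 0.19. Mrpl45, which lies at the exit of the peptide tunnel and ties the ribosome to the inner membrane, rose most (chr11:97315716-97329920, plus strand, GRCm38). It had 23.4, 22.7 and 18.3 FPKM in activated WT cells and 8.14, 8.36 and 8.75 FPKM in naive WT cells. The groups were far apart, and the log2 fold change was 1.25 ± 0.0967 (SE, limma adjusted p = 4.43e-05).

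Mrpl27 is the homologue of bacterial L27, which reaches into the peptidyl transferase centre. Its level was 47.6, 46.9 and 47.8 FPKM in activated WT and 20.7, 19.9 and 26.6 FPKM in naive WT cells, a log2 fold change of 1.06 ± 0.111 (limma adjusted p = 0.000179). Mrpl9, the homologue of bacterial L9, had 78.1, 78.5 and 87.5 FPKM in activated WT and 39.2, 38.8 and 42.4 FPKM in naive WT cells (1.0 ± 0.0764, limma adjusted p = 4.1e-05). In both genes the naive libraries lay well below every activated library; Mrpl27 has a near copy, Gm6304, with 98.9% identity and an average of 2.47 FPKM, that may share its reads. Mrpl54, found only in mitochondrial ribosomes, had 56.8, 54.7 and 55.8 FPKM in activated WT and 31.6, 23.9 and 35.1 FPKM in naive WT cells (0.88 ± 0.124, limma adjusted p = 0.000723). Its naive libraries spread more widely than its activated ones, with naive library 2 lowest. Mrpl4, whose bacterial homologue lines the exit tunnel, had 37.4, 35.4 and 42.8 FPKM in activated WT and 24.0, 21.6 and 26.3 FPKM in naive WT cells, a log2 fold change of 0.66 (limma adjusted p = 0.000821). Mrpl48, a mitochondria-specific protein, had 85.99, 85.6 and 85.9 FPKM in activated WT and 52.6, 50.4 and 60.3 FPKM in naive WT cells (0.65, limma adjusted p = 0.000274). Neither gene's groups overlapped.

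The 4 large-subunit genes that fell were Mrpl38, Mrpl24, Mrpl23 and Mrpl37. Mrpl38, a mitochondria-specific protein, had 12.0, 10.0 and 11.5 FPKM in activated WT and 21.5, 27.5 and 22.7 FPKM in naive WT cells. Every activated library lay below every naive one, and the log2 fold change was -1.03 ± 0.11 (limma adjusted p = 0.000192). Mrpl23 and Mrpl24 are homologues of bacterial proteins at the rim of the exit tunnel. Mrpl24 had 59.5, 62.0 and 68.6 FPKM in activated WT and 96.9, 86.4 and 103 FPKM in naive WT cells (-0.58 ± 0.089, limma adjusted p = 0.00109), with no overlap. Of its exonic length, 26.3% is shared with Rrnad1 on the opposite strand, and whether the counting used strand is not given in the sources used here. Mrpl23 had 28.5, 26.1 and 28.5 FPKM in activated WT and 38.3, 32.3 and 47.0 FPKM in naive WT cells (-0.47, limma adjusted p = 0.0124). Its groups did not overlap either, but its value is uncertain because the pseudogene Mrpl23-ps1 matches it at 100% identity and averaged 11.5 FPKM. Mrpl37, another mitochondria-specific protein, had 21.0, 21.9 and 23.1 FPKM in activated WT and 27.3, 26.8 and 29.4 FPKM in naive WT cells (-0.32, limma adjusted p = 0.00393).

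Among small-subunit genes, 9 of 26 were called higher and 5 lower, with a median log2 fold change of 0.08. Mrps6, the homologue of bacterial S6 on the subunit's platform, had 39.1, 46.3 and 43.2 FPKM in activated WT and 16.5, 26.3 and 16.9 FPKM in naive WT cells. Naive library 2 was the highest naive library here and still below every activated one, and the log2 fold change was 1.10 ± 0.178 (limma adjusted p = 0.00143). Gm49711, on the same strand, shares 19.9% of its exonic length. Mrps16, the homologue of bacterial S16, had 87.2, 90.6 and 108 FPKM in activated WT and 55.6, 43.2 and 64.9 FPKM in naive WT cells (0.81 ± 0.145, limma adjusted p = 0.00241), again with no overlap. The 5 that fell were Mrps28, Mrps18b, Mrps26, Mrps5 and Mrps24. Mrps26, a mitochondria-specific protein, had 31.0, 27.9 and 34.3 FPKM in activated WT and 41.4, 35.3 and 49.6 FPKM in naive WT cells (-0.42, limma adjusted p = 0.0264). Its call was lost without naive library 1 or 3 or without activated WT library 1 or 2 (adjusted p over all alternatives 0.00136 to 0.0896). Mrps28, Mrps5 and Mrps24 also differed with the genotype, and their values stand with that comparison.

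Mrps18a, Mrps18b and Mrps18c encode 3 homologues of the single bacterial protein S18, and their values after activation differed in sign. Mrps18c had 49.5, 45.5 and 44.2 FPKM in activated WT and 34.9, 33.1 and 38.3 FPKM in naive WT cells, with no overlap (0.38, limma adjusted p = 0.00573), though Gm43511 shares 23.2% of its exonic length. Mrps18b had 18.7, 18.7 and 21.9 FPKM in activated WT and 27.6, 23.6 and 31.5 FPKM in naive WT cells, also without overlap, and was called lower (-0.46, limma adjusted p = 0.0362). That call was lost in 7 of 19 alternatives, among them without naive library 1 or 3, activated WT library 1 or 2, or knockout library 3. The antisense gene Gm16279 covers 30.5% of its exonic length. Mrps18a had 26.3, 23.5 and 26.2 FPKM in activated WT and 25, 22.9 and 26.9 FPKM in naive WT cells, which overlapped (0.02, limma adjusted p = 0.845). The differences between the homologues were not themselves tested.

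The stalk of the large subunit recruits translation factors through Mrpl12, which Mrpl10 holds on a base formed with Mrpl11. Mrpl10 had 30.1, 29.0 and 28.6 FPKM in activated WT and 24.96, 20.6 and 26.3 FPKM in naive WT cells, which did not overlap (0.28, limma adjusted p = 0.0273), a call lost in 5 of 19 alternatives. Mrpl12 had 28.8, 26.8 and 30.2 FPKM in activated WT and 23.2, 23.0 and 27.0 FPKM in naive WT cells, and its groups overlapped (0.22, limma adjusted p = 0.0938). Mrpl11 had 5.34, 5.93 and 6.20 FPKM in activated WT and 5.93, 4.86 and 6.81 FPKM in naive WT cells, which overlapped (limma adjusted p = 0.999). Of the 3 stalk genes, Mrpl10 was the one called; antisense genes share 14.1% of the exonic length of Mrpl10 and 13.1% of that of Mrpl12. Mrps36, the gene of the 2-oxoglutarate dehydrogenase complex, was called higher (0.61 ± 0.0741, limma adjusted p = 0.000353), so that 30 of the 31 genes called higher encode ribosome subunits.

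Activated knockout and activated WT cells were compared to ask what loss of the receptor changes after the same culture. Of the 77 genes, 5 were called higher in knockout cells and 0 lower, where 4.14% of all genes were called. That is 6.49% of the members called higher, against 3.3% of all genes, and 0% lower, against 0.84%. The 5 genes were Mrps28, Mrpl42, Mrpl51, Mrps5 and Mrps24. The CD8 markers also ran higher in knockout libraries, with Cd8a at 74.9, 105 and 107 FPKM in activated knockout and 53.4, 52.0 and 79.3 FPKM in activated WT cells, which overlapped; their part in the result was not tested. Before adjustment 42 members had a p under 0.05, or 54.5% against 25.0% of all genes, and 0 of these were lower in knockout cells. The log2 fold change was above 0 in 73 members (94.8%, against 60.5% of all genes), with a median of 0.25 against 0.06 and a range from -0.08 to 0.73. On values as deposited, all 3 knockout libraries lay above all 3 WT libraries in 55 members (71.4%, against 22.8% of all genes). They lay below in 0 members, against 8.36% of all genes.

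These differences were small, and how many were called depended on single libraries, on scaling and on how the model was fitted. All 77 genes differed by less than 2-fold in their group means. After median-of-ratios scaling, which brings the median of all genes to 0, the members' median was 0.18, with 70 above 0. Of the members 1 was called, where 2.02% of all genes were. Quantile normalization gave 0.16, 70 and 1, where 2.14% of all genes were called. The members with an unadjusted p under 0.05 fell from 42 to 29 and 24 under these scalings. Median-of-ratios scaling divided activated knockout libraries by 1.017 to 1.035 and activated WT libraries by 0.971 to 0.982. Overlap of libraries, with 55 members apart, was counted before any scaling. Array quality weights gave 50 called members (25.5% of all genes), no filter on low values 2 (1.63%), and either no intensity trend (2.9%) or the 6 libraries alone (0.608%) 1. No member was called without activated WT library 2 or without knockout library 2 or 3, where 0.423, 0.615 and 0.456% of all genes were called. In these fits 28, 31 and 25 members still had an unadjusted p under 0.05. Without knockout library 1, 9 members were called, where 6.86% of all genes were. The count was 1 without activated WT library 1 or 3 or naive library 1 (1.87, 1.58 and 0.945% of all genes), and 3 without naive library 3 (3.85%).

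**Figure D3:**
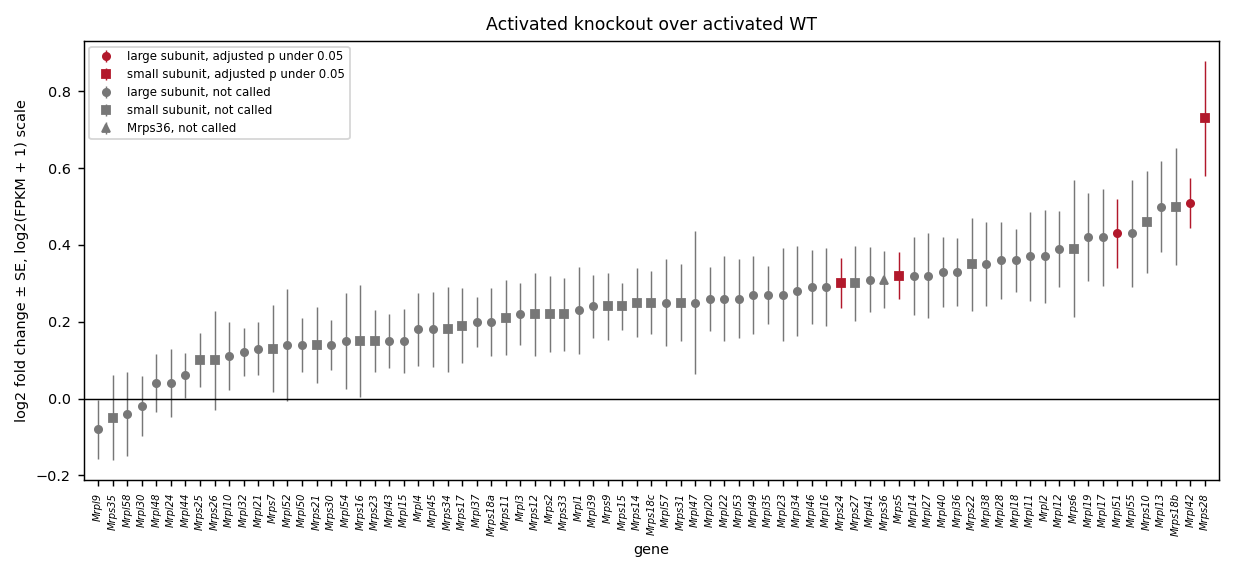
Log2 fold change of each of the 77 genes in activated knockout over activated WT cells, on the log2(FPKM + 1) scale, ordered from lowest to highest, with bars for the SE. Red marks the 5 genes with an adjusted p under 0.05; 73 points lie above 0 as deposited and 70 after median-of-ratios scaling.

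Mrps28 had the largest difference of the 77 genes. It encodes the small-subunit protein bS1m (chr3:8802146-8923918, minus strand, GRCm38). Its level was 15.7, 17.9 and 19.3 FPKM in activated knockout cells, 10.8, 8.24 and 11.9 FPKM in activated WT cells and 20.4, 15.8 and 19.8 FPKM in naive WT cells. The activated WT libraries were lowest and overlapped neither other group, while the knockout and naive libraries overlapped. The log2 fold change was 0.73 ± 0.15 in knockout over WT activated cells (limma adjusted p = 0.0424) and -0.80 ± 0.15 in activated over naive WT cells (limma adjusted p = 0.00281), comparisons that share the activated WT libraries. The knockout call was lost in 13 of 19 alternatives (adjusted p 0.00616 to 0.157).

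Mrpl42, a mitochondria-specific large-subunit protein (chr10:95480805-95501940, minus strand, GRCm38), had the lowest adjusted p. It had 56.2, 61.4 and 59.1 FPKM in activated knockout, 42.5, 39.1 and 41.9 FPKM in activated WT and 38.1, 37.4 and 41.7 FPKM in naive WT cells. The knockout libraries stood above all 6 others, which overlapped with each other. The log2 fold change over activated WT was 0.51 ± 0.0657 (limma adjusted p = 0.0151). It was lost in 4 of 19 alternatives, 3 of which left out activated WT library 2 or knockout library 2 or 3 (adjusted p 0.00237 to 0.074). A near copy of Mrpl42, Gm6419, with 96.3% identity, averaged 3.30 FPKM, so reads may have been split between them.

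Mrpl51, also mitochondria-specific and in the large subunit (chr6:125191801-125196269, plus strand, GRCm38), had 48.8, 54.5 and 55.6 FPKM in activated knockout, 42.8, 37.1 and 37.5 FPKM in activated WT and 29.4, 28.1 and 33.3 FPKM in naive WT cells. The 3 groups did not overlap, and the log2 fold change over activated WT was 0.43 ± 0.0904 (limma adjusted p = 0.0451), a call lost in 13 of 19 alternatives. Mrps5 and Mrps24 are homologues of bacterial S5 and S3, which line the channel where mRNA enters the small subunit. Mrps5 (chr2:127587222-127606829, plus strand, GRCm38) had 50.9, 48.8 and 55.2 FPKM in activated knockout, 39.6, 41.9 and 42.0 FPKM in activated WT and 55.3, 56.7 and 53.4 FPKM in naive WT cells. Mrps24 (chr11:5703983-5715680, minus strand, GRCm38) had 37.6, 42.9 and 41.1 FPKM in activated knockout, 34.5, 31.8 and 32.0 FPKM in activated WT and 39.3, 41.2 and 39.2 FPKM in naive WT cells. In both genes activated WT cells were lowest without overlap, and knockout and naive cells overlapped.

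The log2 fold change of Mrps5 was 0.32 ± 0.0616 in knockout over WT activated cells (limma adjusted p = 0.0392) and -0.41 in activated over naive WT cells (limma adjusted p = 0.000956). That of Mrps24 was 0.30 ± 0.0652 (limma adjusted p = 0.0483) and -0.28 (limma adjusted p = 0.00827). The knockout calls were lost in 11 and 15 of 19 alternatives, and Mrps24 shares 15.4% of its exonic length with Urgcp on the same strand.

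**Figure D4:**
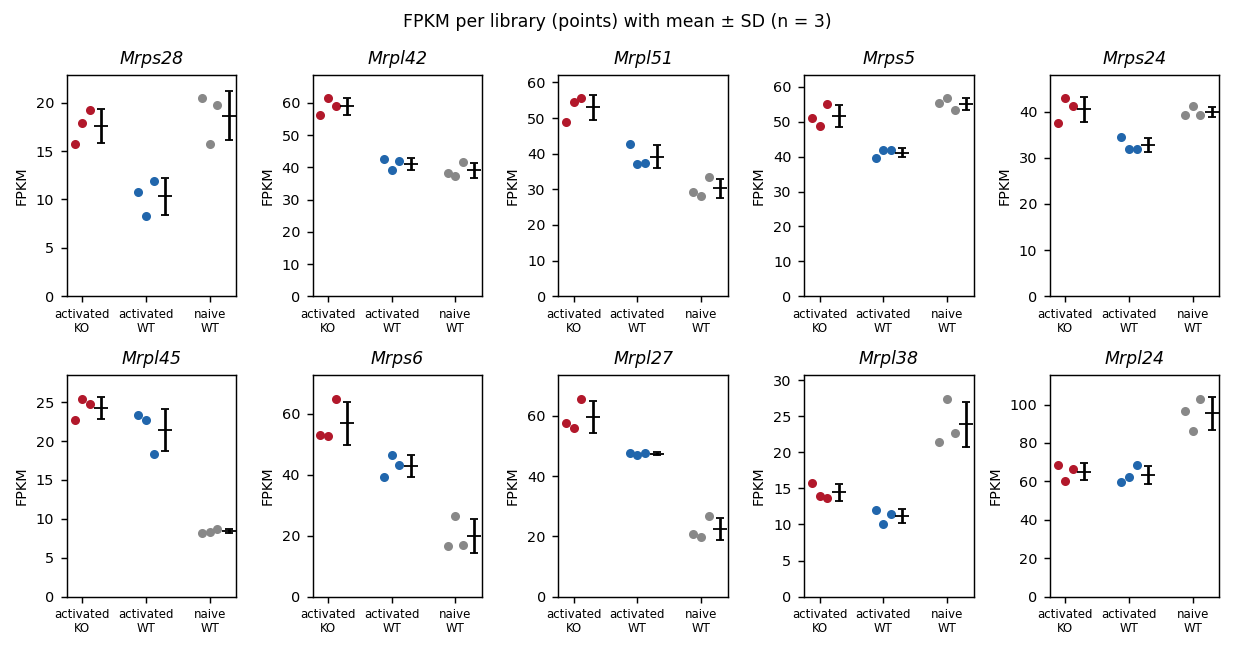
FPKM of 10 genes in each library (points), with the mean ± SD of each group beside them; the upper row shows the 5 genes called in activated knockout over activated WT cells and the lower row 5 genes with large differences between activated and naive WT cells. Activated WT libraries are lowest for Mrps28, Mrps5 and Mrps24, and the knockout libraries are highest for Mrpl42 and Mrpl51.

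The stalk genes, the S18 homologues and Mrps36 lay above 0 without being called. Mrpl12 of the stalk had 33.4, 41.4 and 38.6 FPKM in activated knockout and 28.8, 26.8 and 30.2 FPKM in activated WT cells, which did not overlap (0.39, limma adjusted p = 0.0693). Mrpl11 had 7.14, 8.07 and 8.29 FPKM in activated knockout and 5.34, 5.93 and 6.20 FPKM in activated WT cells (0.37, limma adjusted p = 0.104). For Mrpl10 the difference was 0.11 (limma adjusted p = 0.475). The S18 homologues differed by 0.50 for Mrps18b, 0.25 for Mrps18c and 0.20 for Mrps18a, with limma adjusted p of 0.0997, 0.118 and 0.201, and Mrps36 by 0.31 (0.0574). In Mrps18b the knockout libraries spread widely, at 23.5, 34.2 and 27.7 FPKM, above 18.7, 18.7 and 21.9 FPKM in activated WT cells.

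Only 4 genes had a lower mean in knockout cells, and their groups overlapped. Mrpl9 had 83.2, 72.2 and 75.2 FPKM in activated knockout and 78.1, 78.5 and 87.5 FPKM in activated WT cells (-0.08, limma adjusted p = 0.561). Mrps35 had 32.5, 29.6 and 28.7 FPKM in activated knockout and 30.9, 32.5 and 30.5 FPKM in activated WT cells (-0.05, limma adjusted p = 0.842). Mrpl58 differed by -0.04 and Mrpl30 by -0.02 (limma adjusted p = 0.874 and 0.918). Mrpl58 and Mrpl30 changed sign under some alternatives, and under median-of-ratios and quantile scaling Mrpl24 and Mrpl48 also lay below 0. By subunit, 2 large-subunit and 3 small-subunit genes were called, with medians of 0.26 and 0.23. The 47 bacterial homologues had a median of 0.26 with 3 called, and the 29 mitochondria-specific genes a median of 0.20 with 2 called.

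Activated knockout and naive WT cells differ in genotype and activation together and share their libraries with the other comparisons. Between them 50 genes were called higher (64.9%, against 31.8% of all genes) and 2 lower (2.6%, against 25.1%), with a median log2 fold change of 0.40. In 55 members the unadjusted p was under 0.05 (61.8% of all genes), in 70 the log2 fold change was above 0 (52.9% of all genes), and in 50 every knockout library lay above every naive one (35.2% of all genes). Without naive library 2 there were 43 called higher and 4 lower, with a median of 0.34, and the count called lower was also 4 with median-of-ratios scaling and 6 with quantile normalization. The 2 lower genes were Mrpl38, with 15.8, 13.9 and 13.7 FPKM in activated knockout and 21.5, 27.5 and 22.7 FPKM in naive WT cells (-0.68, limma adjusted p = 0.00119), and Mrpl24, with 68.4, 60.2 and 66.6 FPKM in activated knockout and 96.9, 86.4 and 103 FPKM in naive WT cells (-0.54, limma adjusted p = 0.00127). Mrps6 and Mrpl45 differed most upward, with 53.0, 52.6 and 65.0 FPKM and 22.7, 25.5 and 24.7 FPKM in activated knockout cells and log2 fold changes over naive WT cells of 1.49 and 1.42 (limma adjusted p = 0.000255 and 1.92e-05).

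The other genes of mitochondrial translation did not follow one direction. For the lists that follow, the shares of all genes called in activated over naive WT cells were 26.2% higher and 25.8% lower. In knockout over WT activated cells they were 3.3% and 0.84%, and 25.0% of all genes had an unadjusted p under 0.05. Of 5 ribosome subunits with symbols of another kind, 2 were called higher in activated than in naive WT cells and 1 lower. Aurkaip1, a small-subunit protein, had 67.0, 63.1 and 68.4 FPKM in activated WT and 56.9, 52.5 and 60.0 FPKM in naive WT cells (0.23, limma adjusted p = 0.0185). Ptcd3, another small-subunit protein, had 15.8, 16.05 and 15.3 FPKM in activated WT and 22.04, 22.3 and 23.5 FPKM in naive WT cells (-0.50, limma adjusted p = 0.000466). Neither gene's groups overlapped. With the genotype 0 of the 5 were called, and 2 had an unadjusted p under 0.05.

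Of 17 mitochondrial translation factors, 3 were called higher and 5 lower in activated WT cells, with a median of 0.03. The shares of all genes were 26.2% and 25.8%. Slirp, which stabilises mitochondrial mRNAs, rose (0.63, limma adjusted p = 0.015), while its partner Lrpprc fell (-0.44, limma adjusted p = 0.00373), as did Pdf, the peptide deformylase (-0.86, limma adjusted p = 0.000114). Between activated knockout and activated WT cells 1 was called higher and 1 lower. Tsfm, the exchange factor of the elongation factor Tufm, had 16.7, 18.9 and 19.7 FPKM in activated knockout and 13.6, 13.6 and 12.9 FPKM in activated WT cells (0.43, limma adjusted p = 0.0292). Mtfmt, which formylates the initiator methionine, had 9.10, 7.01 and 7.39 FPKM in activated knockout and 11.2, 10.8 and 12.1 FPKM in activated WT cells (-0.49, limma adjusted p = 0.0393). Both pairs of groups were apart.

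Of 25 genes for ribosome assembly and rRNA modification, 4 were called higher and 12 lower in activated WT cells, with a median of -0.29. Ddx28, an RNA helicase of large-subunit assembly, had 12.0, 10.2 and 12.7 FPKM in activated WT and 4.55, 4.07 and 6.41 FPKM in naive WT cells (1.09, limma adjusted p = 0.000512). Fastkd2, which binds the large-subunit rRNA, had 6.40, 7.36 and 7.62 FPKM in activated WT and 17.1, 14.6 and 16.2 FPKM in naive WT cells (-1.06, limma adjusted p = 0.000105). Both were without overlap. In knockout over WT activated cells 0 were called and 4 had an unadjusted p under 0.05, all higher, where 25.0% of all genes had such a p. Of 22 genes for charging mitochondrial tRNAs, 7 were called higher and 8 lower in activated WT cells, with a median of -0.20. They encode aminoacyl-tRNA synthetases, except Qrsl1, Gatb and Gatc, which encode subunits of an amidotransferase. Lars2 differed most, with 728, 773 and 620 FPKM in activated WT and 29.3, 175 and 39.3 FPKM in naive WT cells (3.56 ± 0.622, limma adjusted p = 0.00209). In activated WT cells its mean of 707 FPKM stood far above the next highest of the 22, Kars with 76.1 FPKM. Whether all reads assigned to Lars2 come from its mRNA was not tested. For Lars2, naive library 2 stood above the other naive ones and below every activated WT one. Ears2 fell most (-1.84, limma adjusted p = 7.76e-05). Gars, whose product serves cytosol and mitochondria, was the 1 called in knockout over WT activated cells, with 69.8, 85.2 and 76.6 FPKM in activated knockout and 60.8, 53.0 and 51.9 FPKM in activated WT cells (0.47, limma adjusted p = 0.0411).

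Of 21 genes for mitochondrial transcription and RNA processing, 2 were called higher and 12 lower in activated WT cells, with a median of -0.28. Polrmt, the mitochondrial RNA polymerase, had 9.15, 7.68 and 9.43 FPKM in activated WT and 17.1, 18.2 and 24.0 FPKM in naive WT cells, with no overlap (-1.08, limma adjusted p = 0.000563). The 1 gene called in knockout over WT activated cells was Rexo2, an oligoribonuclease, with 48.2, 50.9 and 50.2 FPKM in activated knockout and 38.2, 35.3 and 32.5 FPKM in activated WT cells (0.48, limma adjusted p = 0.0282). Of 9 regulators of nuclear genes for mitochondria that were tested, 0 were called higher and 3 lower in activated WT cells: the coactivators Pprc1 (-1.55) and Ppargc1b (-0.67) and the receptor Esrra (-0.74), with limma adjusted p of 0.000404, 0.00855 and 0.00197. With the genotype 0 of the 9 were called and 1 had an unadjusted p under 0.05.

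The products of mitochondrial DNA, the rRNAs and the mRNAs of the ribosome's own clients, differed in opposite directions between activated and naive WT cells. Of 13 mitochondrially encoded protein genes, 0 were called higher and 12 lower in activated WT cells, with a median of -0.67, and in knockout over WT activated cells 0 were called (1 with an unadjusted p under 0.05; median 0.02). The small-subunit rRNA mt-Rnr1 had 591, 712 and 910 FPKM in activated WT and 127, 162 and 154 FPKM in naive WT cells (2.30, limma adjusted p = 3.22e-05). The large-subunit rRNA mt-Rnr2 had 459, 466 and 458 FPKM in activated WT and 169, 262 and 174 FPKM in naive WT cells (1.22, limma adjusted p = 0.000601). In activated knockout cells mt-Rnr1 had 520, 511 and 438 FPKM and mt-Rnr2 357, 340 and 293 FPKM, below every activated WT library, but neither difference was called (-0.57 and -0.49, limma adjusted p = 0.0881 and 0.123). How rRNA was removed before sequencing is not given in the sources used here, and its part in the rRNA levels was not tested.

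**Figure D5:**
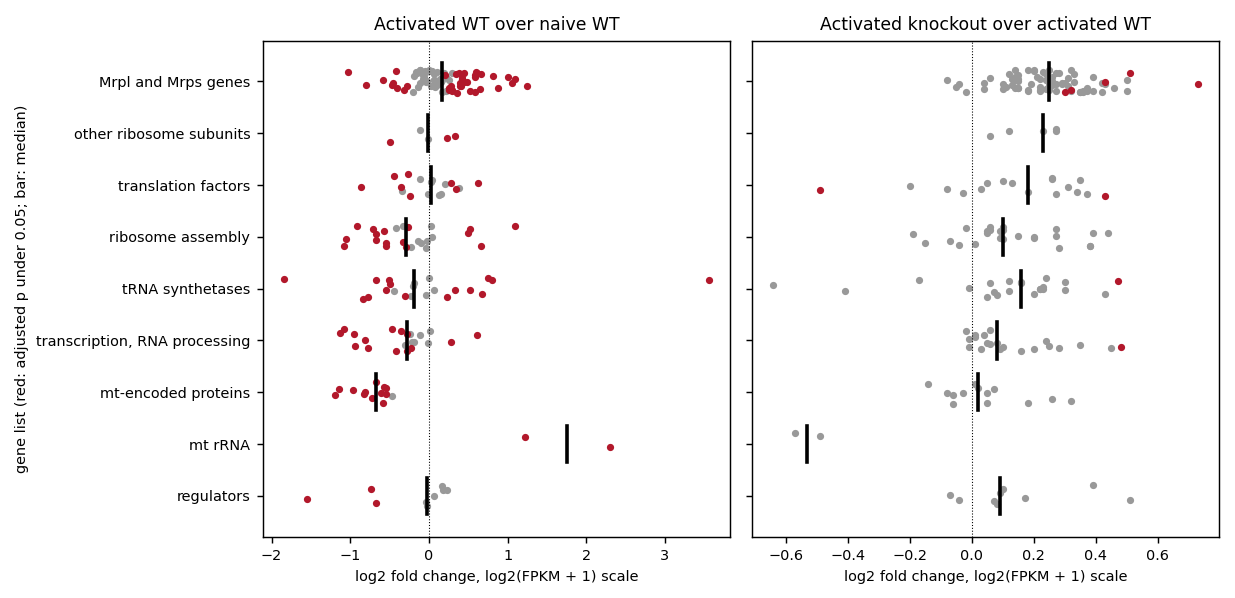
Log2 fold changes on the log2(FPKM + 1) scale of the 77 Mrpl and Mrps genes and of 8 lists of related genes, in activated WT over naive WT cells (left) and activated knockout over activated WT cells (right). Points are genes, red ones have an adjusted p under 0.05 and bars are list medians; the Mrpl and Mrps median is 0.17 on the left and 0.25 on the right.

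Set beside other large complexes, the members lay between cytosolic ribosomal proteins and the nuclear genes of oxidative phosphorylation after activation. Of 78 cytosolic ribosomal protein genes, 19 were called higher and 13 lower in activated WT cells (median 0.02). Of 78 oxidative phosphorylation genes, 51 were called higher and 1 lower (median 0.39), where 26.2% and 25.8% of all genes were. In knockout over WT activated cells the cytosolic ribosomal protein genes had 2 called higher and 1 lower (median -0.09). The oxidative phosphorylation genes had 11 higher and 0 lower (median 0.24), where 3.3% and 0.84% of all genes were called. The log2 fold change was above 0 in 74 of the 78 oxidative phosphorylation genes and 14 of the 78 cytosolic ones, against 73 members. All knockout libraries lay above all activated WT ones in 59 and 4 of these genes, against 55 members. The members thus shared their shift toward knockout cells with the oxidative phosphorylation genes. The share of protein-coding FPKM in oxidative phosphorylation genes was 1.89 to 2.02% in activated knockout, 1.66 to 1.70% in activated WT and 1.24 to 1.36% in naive WT libraries. That of the cytosolic ribosomal proteins was 22.5 to 23.9% in activated knockout, 24.5 to 26.1% in activated WT and 24.6 to 28.2% in naive WT libraries, so the members' order of groups was that of the oxidative phosphorylation genes. The differences between these lists were not tested.

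The members lie on 17 chromosomes, and many start close to the start of a neighbour. Of the 77 genes, 33 (42.9%) have a protein-coding neighbour that starts within 1000 bases on the opposite strand and runs the other way, against 10.9% of 21951 protein-coding genes. Those 21951 were taken without regard to expression in these cells, while every member was expressed. Starts are here the outermost ends of the annotated genes, and can differ from the RefSeq starts of the promoter windows below. Mrps24, on the minus strand, reaches to base 5715680 of chromosome 11, while its window lies at 5707652-5707951. Mrpl46 and Mrps11 are such neighbours of each other, with starts 412 bases apart. Other pairs join members to genes of mitochondrial function: Mrps12 to the seryl-tRNA synthetase Sars2 (172 bases between starts), Mrpl36 to the complex I subunit Ndufs6 (29 bases) and Mrpl43 to the helicase Twnk (779 bases). Paired genes can overlap. Mrpl46 shares 12.2% of its exonic length with Mrps11, Mrpl43 33.4% with Twnk and Mrpl36 2.6% with Ndufs6, while Mrps12 shares none with Sars2. In activated over naive WT cells the 33 members with such a neighbour had 15 called higher and 3 lower (median 0.22), and the 44 without had 16 and 6 (median 0.10). The 29 partner genes tested that are no members had 12 higher and 11 lower (median 0.03). Among all genes tested, 26.2% were called higher and 25.8% lower. In knockout over WT activated cells both sets of members had a median of 0.25 and the partners 0.13. By overlap or a near copy, 23 members can share reads with another gene: 17 share at least 10% of their exonic length, 13 of them with a gene on the opposite strand, and 6 have a near copy elsewhere.

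Promoters of members were searched for the letters of motifs bound by factors known to act on nuclear genes for mitochondria, since 73 of the 77 genes lay above 0 in knockout over WT activated cells as deposited and 70 after median-of-ratios or quantile scaling. The windows, from RefSeq on GRCm38.p6, run from 250 bases before to 50 bases after a gene's start; 68 of the 77 members matched, with 74 windows. The ETS letters CCGGAAG (bound by GABPA among others) were present, on either strand, in 33.8% of the members' windows, against 11.6% of 21263 windows of protein-coding genes. The YY1 letters AAGATGG were in 17.6% against 6.24%, the NRF1 letters GCATGCG in 9.46% against 4.44%, and the E-box CACGTG, bound by MYC among others, in 9.46% against 7.84%. Median GC content was 58.8% in the members' windows and 56.3% in those of protein-coding genes. The windows of protein-coding genes were likewise taken without regard to expression. Members with the ETS letters had a median log2 fold change of 0.26 in activated over naive WT cells (25 genes) and those without 0.10 (43 genes). The YY1 letters went the other way, with 0.06 (13 genes) against 0.21 (55 genes). For NRF1 the medians were 0.14 (7 genes) and 0.15 (61 genes), and for the E-box 0.24 (5 genes) and 0.14 (63 genes). The members' E-box windows were 7, from these 5 of 68 genes, so some genes were counted in more than 1 window. In knockout over WT activated cells they were 0.22 and 0.25 for both ETS and YY1, 0.24 and 0.25 for NRF1 and 0.26 and 0.25 for the E-box. Differences between these medians were not tested. Shown are the windows of 4 genes called in knockout cells and of Mrpl9 and Mrpl45, called higher in activated WT cells, with matches to these letters in capitals; Mrps28, also called in knockout cells, is named only.
Mrpl42 (chr10:95501900-95502199, minus strand): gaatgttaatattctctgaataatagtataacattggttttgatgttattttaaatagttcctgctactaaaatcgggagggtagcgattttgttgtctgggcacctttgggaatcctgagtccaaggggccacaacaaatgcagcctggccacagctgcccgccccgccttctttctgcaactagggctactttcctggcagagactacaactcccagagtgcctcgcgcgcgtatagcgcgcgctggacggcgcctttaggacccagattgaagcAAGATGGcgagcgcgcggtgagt
Mrpl51 (chr6:125191950-125192249, plus strand): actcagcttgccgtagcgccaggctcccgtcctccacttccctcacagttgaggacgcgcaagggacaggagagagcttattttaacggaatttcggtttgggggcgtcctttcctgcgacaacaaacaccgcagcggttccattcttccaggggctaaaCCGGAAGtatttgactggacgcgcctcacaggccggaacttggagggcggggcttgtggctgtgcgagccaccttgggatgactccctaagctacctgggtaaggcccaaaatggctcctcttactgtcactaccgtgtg
Mrps24 (chr11:5707652-5707951, minus strand): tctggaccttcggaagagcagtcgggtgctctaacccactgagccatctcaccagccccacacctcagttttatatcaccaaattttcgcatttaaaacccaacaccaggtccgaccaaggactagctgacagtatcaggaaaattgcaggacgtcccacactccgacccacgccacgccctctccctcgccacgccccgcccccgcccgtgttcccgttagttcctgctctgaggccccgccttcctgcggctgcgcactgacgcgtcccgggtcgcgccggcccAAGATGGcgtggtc
Mrps5 (chr2:127587176-127587475, plus strand): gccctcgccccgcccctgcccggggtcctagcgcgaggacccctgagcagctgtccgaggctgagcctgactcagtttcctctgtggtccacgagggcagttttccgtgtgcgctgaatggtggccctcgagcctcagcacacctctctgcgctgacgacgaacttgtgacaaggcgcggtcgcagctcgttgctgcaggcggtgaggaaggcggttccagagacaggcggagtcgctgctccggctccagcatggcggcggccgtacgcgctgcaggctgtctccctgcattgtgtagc
Mrpl9 (chr3:94443086-94443385, plus strand): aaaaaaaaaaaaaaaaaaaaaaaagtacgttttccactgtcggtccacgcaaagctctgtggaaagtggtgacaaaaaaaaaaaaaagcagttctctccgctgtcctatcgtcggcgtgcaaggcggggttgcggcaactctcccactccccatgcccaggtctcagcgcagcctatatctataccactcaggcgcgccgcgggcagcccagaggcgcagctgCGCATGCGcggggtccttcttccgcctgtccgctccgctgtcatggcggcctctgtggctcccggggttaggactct
Mrpl45 (chr11:97315466-97315765, plus strand): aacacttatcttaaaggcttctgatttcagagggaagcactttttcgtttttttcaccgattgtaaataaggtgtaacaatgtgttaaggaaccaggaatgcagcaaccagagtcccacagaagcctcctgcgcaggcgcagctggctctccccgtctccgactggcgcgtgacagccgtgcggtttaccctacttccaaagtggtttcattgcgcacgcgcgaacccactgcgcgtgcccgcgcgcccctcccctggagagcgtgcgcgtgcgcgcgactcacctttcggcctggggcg

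The YY1 letters start 28 bases into Mrpl42 and 37 bases into Mrps24, counted from the RefSeq start. The ETS letters in Mrpl51 start at position -90, and in Mrpl9 the NRF1 letters occur on both strands in 1 overlapping stretch that starts at position -27. The windows of Mrps5 and Mrpl45 hold none of the 4 motifs as written. A match describes the letters of the window, and binding was not measured.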

How the data were processed

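The authors deposited 1 table of FPKM values per gene for the 9 libraries. Per the submitters' processing notes, TopHat2, Cufflinks, Cuffdiff and the GRCm38 build were used; their versions, the annotation and the strand setting were not given in the sources used. FPKM are no counts, so the depth of the libraries is unknown and no count test was run. The members and gene lists were chosen with earlier results of these data known.

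Gene IDs were matched to symbols for 24876 of 25759 rows. Genes averaging at least 0.5 FPKM (15126) were fitted by limma (version 3.58.1, R version 4.3.3, group means, eBayes with trend) on log2(FPKM + 1). The procedure was run on simulated data for activated over naive WT cells only, so it gives no check of the knockout comparison. Fold changes on this scale understate changes of low genes. An adjusted p under 0.05 was a call.

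Named members were the 8 called members with the largest change in each direction in activated over naive WT cells, those called in knockout over WT activated cells and, where under 5, those of smallest p up to 5 in that direction, the 4 highest and 4 lowest levels, the S18 homologues and the stalk. Other genes, among them those named from the lists and Mrps36, were chosen after their values were seen.

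Overlaps and near copies (at least 90% identity over 50% of the length, BLAST 2.17.0) use GRCm38 and its gene annotation. Deviations from the group means correlated at 0.0027 to 0.054 between same-numbered libraries and at -0.0682 to 0.0375 between others; as none passed 0.1, the numbers were not taken to pair the libraries. Alternatives covered pseudocount, filter, scaling, weights, trend, the replicate block and leaving out each library, 19 in all.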

Additional observations from a re-analysis of the deposited data

How the results depend on the processing

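Counts in activated over naive WT cells stayed within 1.5 times in every alternative run (27 to 39 higher, 7 to 12 lower). The 5 members called in knockout over WT activated cells became 2 with no filter on low values, 1 with median-of-ratios scaling, quantile normalization, the 6 libraries alone or no intensity trend, and 50 with array quality weights. Leaving out 1 library gave 0 to 9, where 0.423 to 6.86% of all genes were called. The cause was not tested. Those lower in knockout than in naive WT cells went to 4 with median-of-ratios scaling and 6 with quantile normalization, against 2, and lay between 2 and 4 when 1 library was left out (4 without naive library 2).

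With the replicate number as a block, 0 members were called in knockout over WT activated cells, where 0.383% of all genes were. Of the 9 libraries, 4 correlated best with their own number in both other groups, a hint from the data and not the design. The other counts stayed within 1.5 times under the block.

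Log2 fold changes of named genes changed sign in 27 cases, none of them a call. In knockout over WT activated cells these were Mrpl48 (-0.04 with either scaling), Mrpl24 (-0.04 with median-of-ratios, -0.05 with quantile scaling, -0.0053 to 0.10 leaving out 1 library), Mrpl58 (0.0019 with weights, -0.09 to 0.05 leaving out 1 library) and Mrpl30 (0.04 with weights, -0.10 to 0.03 leaving out 1 library). In activated over naive WT cells they were Mrpl11 (0.00016 with a pseudocount of 0.1, 0.03 with median-of-ratios scaling, -0.11 to 0.10 leaving out 1 library), Mrps27 (-0.13 to 0.05 leaving out 1 library), Mrpl57 (-0.06 with weights, -0.03 to 0.16 leaving out 1 library), Mrpl52 (-0.04 with quantile scaling, -0.04 to 0.24 leaving out 1 library) and Mrps18a (-0.01 with quantile scaling, -0.03 with weights, -0.03 to 0.08 leaving out 1 library).

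The table gives no read counts, so the precision that depth allows is unknown.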
